A study of Mus musculus with 12 samples.

Results

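The genes described here are 40 imprinted genes of the mouse, chosen by name from 18 imprinted loci: 8 genes from 3 loci whose control region is methylated on the paternal copy, and 32 genes from 15 loci whose control region is methylated on the maternal copy. They were found in the deposited gene table by matching its Ensembl identifiers to symbols in GENCODE release M21 (GRCm38). All 40 were among the 35666 genes listed, and all 40 were among the 26005 genes with a mean of at least 10 normalized counts over 6 libraries, which were the genes tested. A normalized count is a read count divided by 1 size factor per library.

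The libraries were made from gonocytes, the germ cells found in the testis around birth, at postnatal day 0 (P0). The control group had 1 intact and 1 mutant copy of Morc1 (het, Morc1 +/-) and the knockout group had no intact copy (KO, Morc1 -/-), with 3 libraries in each group. Cells of both groups were isolated from mice carrying the Mvh-Venus transgene, a reporter driven by the promoter of Mvh (Ddx4), a germ cell gene. Nothing in the labels says whether the 3 samples of a group came from separate animals, so p-values measure only the spread between these samples, which may be technical, and the samples labelled postnatal day 3 were not analysed here.

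An imprinted gene is expressed mainly or only from the copy inherited from one parent. The choice is set by an imprinting control region, a CpG-rich stretch that carries DNA methylation on the maternal or the paternal copy only. Male germ cells erase the inherited marks in the fetus, and before birth they methylate the few control regions that are to be marked paternally, while the control regions that are marked maternally stay unmethylated in the male germline. Imprinted genes sit in clusters, often with a long noncoding RNA that silences its neighbours, and many act on growth of the fetus and placenta. The deposited values sum reads from both parental copies, and the expressed allele was not measured.

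The gene table held between 28363683 and 32816861 reads per library. Values are listed here in the order of replicates 1 to 3. The targeted gene, Morc1, followed the labels, with normalized counts of 7248, 7485 and 4126 in het against 1360, 1343 and 1794 in KO (limma log2 fold change -2.03, adjusted p 0.0109). None of 10 germ cell markers was at 0 in any library, none had an unadjusted limma p under 0.05, and their summed level was 127053 to 183899 in het and 137430.0 to 177293 in KO. The libraries also held RNA of somatic cells of the testis. The 8 Sertoli cell markers summed to 17747 to 36683 in het and 12745 to 18151 in KO, with all 8 estimates below 0, 4 of them (Sox9, Amh, Clu and Dhh) at an unadjusted limma p under 0.05 and none called. The 7 Leydig cell markers summed to 26769.9 in het replicate 3 and to between 935 and 1653 in the other 5 libraries. The 10 stromal and myoid markers summed to 8212 to 8916 in het and 7943 to 9954 in KO, the 4 endothelial markers to 2114 to 2739 in het and 3315 to 3774 in KO, and the 6 macrophage and blood markers to 842 to 1346 in het and 782 to 1708 in KO.

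None of the 40 imprinted genes passed the test between KO and het gonocytes, and the estimates of largest size lay at the Snrpn locus and in Kcnq1. In the limma fit over all genes, 0 of 40 had an adjusted p under 0.05, and the smallest adjusted p was 0.254. Of all tested genes, 0.431% were called higher in KO and 0.0423% lower. At an unadjusted limma p under 0.05 there were 4 imprinted genes (Mkrn3, Peg12, Magel2 and Kcnq1), or 10%, beside 6.86% of all tested genes. DESeq2 on recovered read counts called 1 of the 40, Mkrn3, as higher in KO (1.54% of all genes were called higher by that test). With edgeR on the same counts none was called, and 3 had an unadjusted p under 0.05, beside 6.57% of all tested genes.

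The estimates lay on both sides of 0. There were 18 estimates above 0 and 22 below, with a median log2 fold change of -0.03, beside -0.02 for all tested genes. For 33 of the 40 the estimate was under 0.5 in size. All 3 KO libraries lay above all 3 het libraries for 2 genes, Mkrn3 and Peg12, as they did for 7.17% of all tested genes. All 3 KO libraries lay below all 3 het libraries for 4 genes, Magel2, Kcnq1, Ascl2 and Nnat, as they did for 5.57% of all tested genes. Fewer cells of a type and less RNA per cell cannot be told apart in such bulk libraries.

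**Figure D1:**
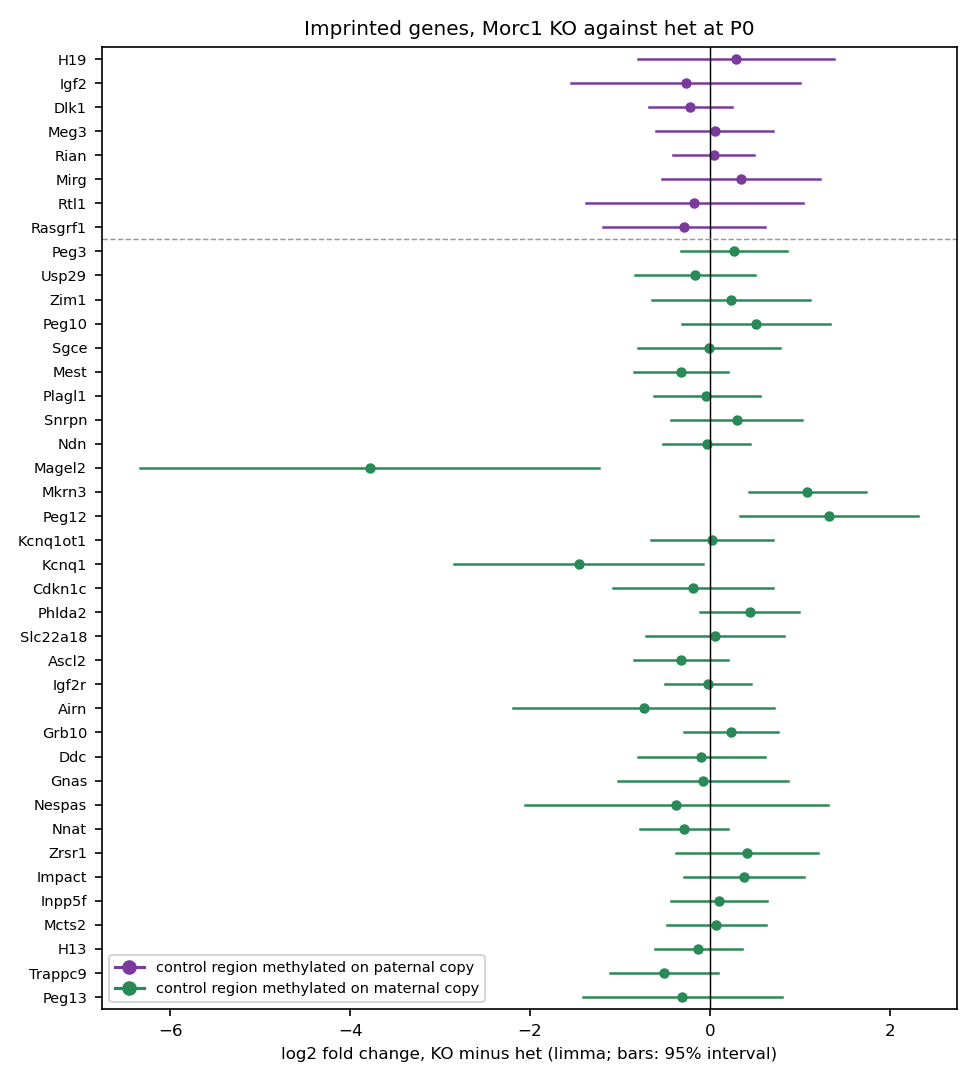
Log2 fold change (KO minus het, limma on log2 of the normalized count plus 1) of each of the 40 imprinted genes, grouped by locus, with its 95% confidence interval. Most intervals cross 0, and the 3 estimates of largest size, Magel2 at -3.78, Kcnq1 at -1.46 and Peg12 at 1.33, belong to loci whose control region is methylated on the maternal copy.

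The 2 classes of control region were looked at side by side. The 8 genes at paternally methylated regions had 4 estimates above 0 and 4 below, between -0.29 and 0.35, with a median of -0.07 and no unadjusted limma p under 0.05 (the smallest was 0.315). The 32 genes at maternally methylated regions had 14 estimates above 0 and 18 below, between -3.78 and 1.33, with a median of -0.03, and held all 4 genes with an unadjusted p under 0.05. By the allele that is usually expressed, the 23 paternally expressed genes had a median of -0.04, the 11 maternally expressed genes 0.05, and the 6 genes whose expressed allele depends on the tissue -0.09. No test of the difference between these classes was made.

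The Snrpn locus on chromosome 7, the mouse counterpart of the Prader-Willi region, held 3 of the 4 genes with an unadjusted p under 0.05. In it the paternal copy expresses Snrpn, which encodes a splicing protein and starts at the control region, and a distant cluster of genes with no or few introns: Ndn (necdin, a growth suppressor of neurons), Magel2 (a regulator of ubiquitin ligases in protein recycling), Mkrn3 (a zinc finger ubiquitin ligase that restrains the onset of puberty) and Peg12 (a relative of the Wnt pathway protein FRAT1). The 4 genes from Ndn to Peg12 span 117.942 kb, with gaps of 26.75 kb between Ndn and Magel2, 35.95 kb between Magel2 and Mkrn3, and 41.73 kb between Mkrn3 and Peg12. Snrpn lies 2206 kb away from Ndn. The sequences upstream of the start sites of Magel2, Mkrn3 and Peg12 are shown because these are the genes whose levels stood apart. Each is the 250 bases before the start in RefSeq (GRCm38.p6), read 5′ to 3′ on the strand of the gene, with CpG dinucleotides in capitals. They come from chr7:62376729-62376978 (plus strand), chr7:62420154-62420403 (minus strand) and chr7:62464511-62464760 (minus strand), and hold 7, 10 and 8 CpG dinucleotides.
Magel2: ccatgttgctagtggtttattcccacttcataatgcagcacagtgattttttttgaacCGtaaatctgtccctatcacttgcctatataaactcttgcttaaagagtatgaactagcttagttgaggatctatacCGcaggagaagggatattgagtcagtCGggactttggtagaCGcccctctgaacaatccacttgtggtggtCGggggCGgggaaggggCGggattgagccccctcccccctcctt
Mkrn3: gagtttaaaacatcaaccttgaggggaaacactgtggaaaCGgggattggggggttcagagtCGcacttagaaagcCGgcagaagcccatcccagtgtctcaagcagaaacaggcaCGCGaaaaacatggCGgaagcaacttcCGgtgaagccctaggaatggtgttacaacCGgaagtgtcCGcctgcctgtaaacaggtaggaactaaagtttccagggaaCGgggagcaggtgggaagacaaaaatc
Peg12: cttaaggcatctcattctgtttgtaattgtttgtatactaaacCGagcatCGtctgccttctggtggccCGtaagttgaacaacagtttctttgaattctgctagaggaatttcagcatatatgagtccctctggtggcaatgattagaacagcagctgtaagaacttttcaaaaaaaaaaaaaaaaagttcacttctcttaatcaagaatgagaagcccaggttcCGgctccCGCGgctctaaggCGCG

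Mkrn3 (ENSMUSG00000070527, chromosome 7 from 62417593 to 62420139, minus strand, GRCm38) stood at 273, 212 and 153 normalized counts in het and at 419, 408 and 498 in KO. Every KO library was above every het library. The mean was 213 ± 59.8 (SD, n = 3) in het and 441 ± 49.0 (SD, n = 3) in KO, a ratio of 2.07, with a limma log2 fold change of 1.08 (SE 0.29, 95% confidence interval 0.43 to 1.73). The unadjusted p was 0.00404 and the adjusted p 0.254 in the limma fit, so the gene did not pass. The 17 alternative fits gave estimates of the same direction and an unadjusted p under 0.05 in 17 of 17, and adjusted p-values from 0.0436 (DESeq2, log2 fold change 1.05) to 0.655. The closest other annotated gene by transcript sequence was Mkrn1, at 77.9% identity over 23.6% of the Mkrn3 transcript.

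Peg12 (ENSMUSG00000070526, chromosome 7 from 62461871 to 62464510, minus strand) had 275, 331 and 138 normalized counts in het and 429, 419.5 and 1102 in KO. All KO libraries were above all het libraries, and KO replicate 3 was far above the other 2. The KO mean of 650.4 ± 391 (SD, n = 3) was 2.62 times the het mean of 248 ± 99.6 (SD, n = 3), with a limma log2 fold change of 1.33 (SE 0.44, 95% confidence interval 0.34 to 2.31, adjusted p 0.469). Without KO replicate 3 the estimate was 0.87, and the unadjusted limma p went from 0.0135 to 0.0589. Without het replicate 3 it was 0.95 (unadjusted limma p 0.0549). Peg12 is a retroposed relative of Frat1, whose transcript was 85.9% identical over 96.2% of the length of Peg12, and how reads that match both were counted is not given in the sources used here, so the split between them is uncertain. Frat1 itself had 248, 284 and 153 normalized counts in het and 230.5, 479 and 516 in KO, and did not pass (limma adjusted p 0.77).

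Magel2 (ENSMUSG00000056972, chromosome 7 from 62377010 to 62381640, plus strand) was the least abundant gene of the locus, and its estimate was below 0, where those of Mkrn3 and Peg12 were above 0. It had 47.7, 27.0 and 27.3 normalized counts in het, against 13.9 in KO replicate 1 and 0 in KO replicates 2 and 3. The het libraries held 50, 28 and 28 recovered reads and KO replicate 1 held 14, and a library with 0 reads allows up to 3. The mean was 34.0 ± 11.8 (SD, n = 3) in het and 4.62 ± 8.0 (SD, n = 3) in KO, a ratio of 0.136, and the limma log2 fold change was -3.78 (SE 1.15, 95% confidence interval -6.33 to -1.23, unadjusted p 0.00787, adjusted p 0.363). At these levels the size of the estimate depended on the pseudocount: it was -5.99 with a pseudocount of 0.1 and -1.69 with 10, at limma adjusted p-values of 0.608 and 0.227, and the count tests gave -2.88 (DESeq2) and -2.84 (edgeR).

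Ndn and Snrpn, the remaining genes of the locus, showed no such separation. Ndn had 1841, 1668 and 2233 normalized counts in het and 1886, 2081 and 1617 in KO (limma log2 fold change -0.04, 95% confidence interval -0.52 to 0.45). Snrpn had 419, 345 and 581 in het and 354, 600.3 and 729 in KO (limma log2 fold change 0.29, 95% confidence interval -0.44 to 1.03). Both sets of KO libraries overlapped the het libraries. Within the locus, then, 2 estimates with an unadjusted p under 0.05 were above 0 and 1 was below. The exons of Snrpn share 27.3% of their length with Gm38393 and 10% with Snurf, so reads may be split among them. The Snrpn transcript was also 95.3% identical to Gm5802 over 33.7% of its length, so its counts are uncertain.

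A copy of a transposable element (TE) close to these genes did change. The deposited TE table lists copies by position, without a family name. The copy at chr7:62329045-62335724, 6680 bases on the minus strand and 10.84 kb upstream of the annotated start of Ndn, had 8.44, 19.1 and 41.2 normalized counts in het and 302, 371 and 241 in KO. Every KO library was more than 5 times the highest het library. Its mean rose from 22.9 ± 16.7 to 305 ± 64.8 (SD, n = 3 each), with a limma log2 fold change of 3.91 (SE 0.52, adjusted p 0.000756), and it was called in all 11 alternative fits of the TE table (adjusted p 0.000219 to 0.0133). The level of Ndn, the nearest of the 40 genes, overlapped between the groups as given above. Of all 49781 TE copies tested, 15.6% were called higher in KO and 0.735% lower.

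**Figure D2:**
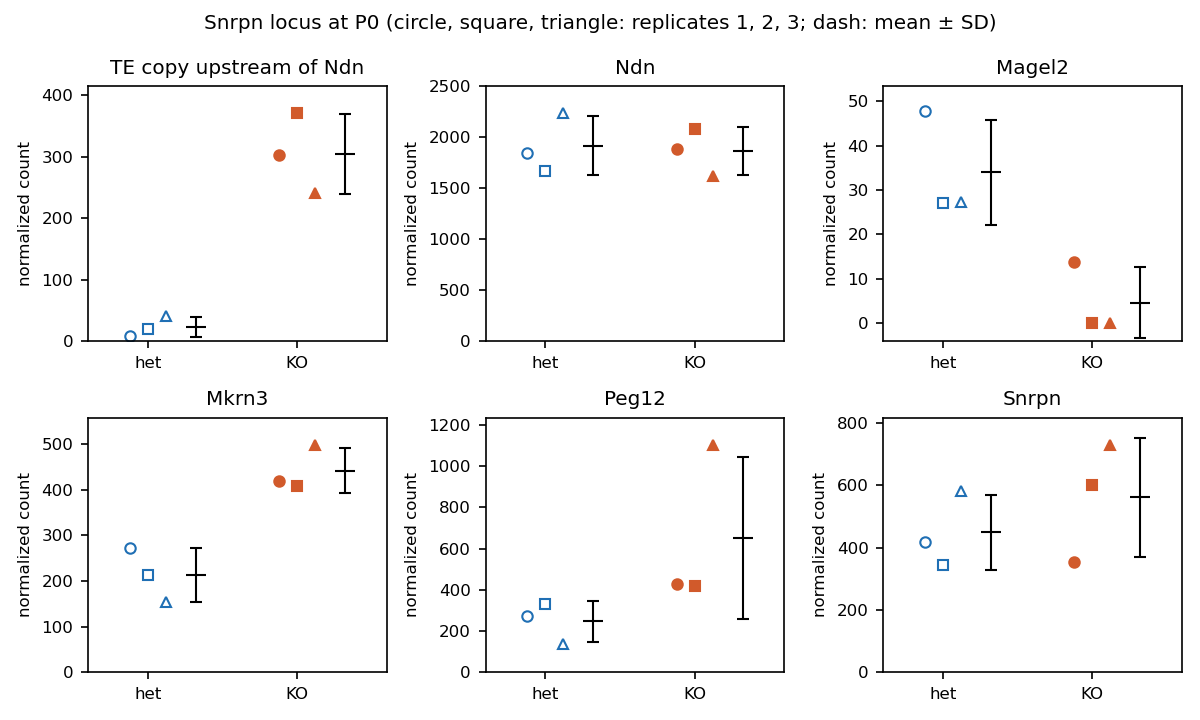
Normalized counts per library of the TE copy upstream of Ndn and of the 5 genes of the Snrpn locus, on linear axes of their own, with the group mean and SD (n = 3) beside the points. The TE copy was at 241 to 371 in KO against 8.44 to 41.2 in het, Mkrn3 and Peg12 were higher and Magel2 lower in every KO library, and Ndn and Snrpn overlapped between the groups.

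Leaving out the Snrpn locus removes 3 of the 4 genes with an unadjusted limma p under 0.05, which lowers the share among the rest. Outside it, 1 of 35 imprinted genes, or 2.86%, had such a p, beside 6.86% of all tested genes. It was Kcnq1, which encodes a potassium channel subunit and belongs to the cluster controlled by the noncoding RNA Kcnq1ot1. Kcnq1 (ENSMUSG00000009545, chromosome 7 from 143106362 to 143427042, plus strand) had 124, 155 and 132 normalized counts in het and 119, 61.0 and 15.7 in KO. The KO libraries were all below the het libraries, but KO replicate 1 was only just below het replicate 1, and KO replicate 3 was far below the rest. The mean was 137 ± 15.9 (SD, n = 3) in het and 65.1 ± 51.7 (SD, n = 3) in KO, with a limma log2 fold change of -1.46 (SE 0.62, 95% confidence interval -2.85 to -0.07, unadjusted p 0.0409, adjusted p 0.691). The unadjusted p was under 0.05 in 9 of 17 alternative fits, and without KO replicate 3 the estimate was -0.67. Kcnq1ot1 runs antisense inside Kcnq1, and their exons share 121 bases.

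None of the other genes of the Kcnq1ot1 cluster had an unadjusted limma p under 0.05. Kcnq1ot1, which is transcribed from the paternal copy and silences its neighbours there, had 1602, 1268 and 2052 normalized counts in het and 1138, 2419.9 and 1572 in KO (limma log2 fold change 0.02, 95% confidence interval -0.66 to 0.70). Cdkn1c, the cell cycle inhibitor p57, had 1029, 1216 and 3081 in het and 1112, 1954 and 1205 in KO. Its highest value by far was in het replicate 3, the library with the highest Leydig and Sertoli cell marker sums. Without that library its estimate went from -0.19 to 0.30. The part of those cells in the Cdkn1c value was not tested. Antisense Gm44732 overlaps 30.7% of the exonic length of Cdkn1c, so the Cdkn1c counts are uncertain. Phlda2, which restrains growth of the placenta, had 462, 579 and 437 in het and 564, 762 and 679 in KO (limma log2 fold change 0.44, 95% confidence interval -0.11 to 0.99). Slc22a18, an organic cation transporter, had 393, 207 and 436 in het and 303, 289 and 454 in KO. Ascl2, a transcription factor of the trophoblast, had 487, 525 and 552 in het and 463, 419.5 and 371 in KO. Its groups did not overlap, but the difference was small: the limma log2 fold change was -0.32 (95% confidence interval -0.85 to 0.20, unadjusted p 0.203).

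The 3 loci described here with paternally methylated control regions are among those that male germ cells mark before birth. At the first, H19, a noncoding RNA expressed from the maternal copy, had 154, 172 and 393 normalized counts in het and 162, 531 and 222 in KO (limma log2 fold change 0.29). Igf2, its paternally expressed neighbour and a growth factor of the fetus, had 62.0, 62.8 and 80.9 in het and 72.2, 113 and 21.6 in KO (limma log2 fold change -0.27). For H19 the highest libraries were het replicate 3 and KO replicate 2, and for Igf2 the KO values lay on both sides of the het values. The 95% confidence intervals were wide, -0.80 to 1.38 for H19 and -1.54 to 1.00 for Igf2. Gm49394 on the same strand shares 62.8% of the exonic length of Igf2, so the Igf2 counts are uncertain.

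The Dlk1-Meg3 locus on chromosome 12 pairs paternally expressed protein genes with maternally expressed noncoding RNAs. Dlk1, which encodes a transmembrane protein related to Notch ligands, had 2416, 2813 and 2128 normalized counts in het and 2222, 1894 and 2177 in KO (limma log2 fold change -0.22, 95% confidence interval -0.68 to 0.24). Rtl1, a gene derived from a retrotransposon, was low at 38.1, 63.7 and 138 in het and 49.5, 104 and 45.1 in KO. Noncoding RNAs of the locus were present in all libraries. Meg3 had 1467, 1397 and 2448 in het and 1445, 2449.9 and 1586 in KO. Rian, the host of a row of small nucleolar RNAs, had 1845, 1564 and 1973 in het and 1795, 1828 and 1885 in KO, and its interval was the narrowest of the 40 genes (limma log2 fold change 0.04, 95% confidence interval -0.41 to 0.49). Mirg, the host of a microRNA cluster, had 179, 181 and 228 in het and 134, 392 and 291 in KO (limma log2 fold change 0.35, 95% confidence interval -0.53 to 1.23). In all 5 genes the groups overlapped. Small RNAs cut from Rian and Mirg were not measured in these libraries.

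At the third paternally methylated locus, Rasgrf1, an exchange factor for Ras, had 1867, 2288 and 772 normalized counts in het and 1809.7, 996 and 1001 in KO. The low value of het replicate 3 lay below all KO libraries. The limma log2 fold change was -0.29 (95% confidence interval -1.19 to 0.61), and it was -0.76 without het replicate 3 and 0.02 without het replicate 2. Over the 8 genes of these 3 loci the precision differed from gene to gene, from the narrow intervals of Rian and Dlk1 to the wide ones of Igf2 and H19.

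The remaining maternally methylated loci are described by the roles of their genes. Peg3, a zinc finger protein, had 1429, 1197 and 1299 normalized counts in het and 1444, 2263 and 1191 in KO. Plagl1, a zinc finger transcription factor that acts on a network of imprinted genes, had 729, 983 and 884 in het and 884, 1062 and 622 in KO. In both genes the KO libraries lay on both sides of the het libraries. The neighbours of Peg3 were lower: Usp29, which encodes a ubiquitin protease and starts in the same control region, had 309.9, 447 and 527 in het and 448, 399 and 288 in KO, and the zinc finger gene Zim1 had 75.3, 66.6 and 50.7 in het and 105, 61.0 and 64.7 in KO. Limma log2 fold changes were 0.27 for Peg3, -0.04 for Plagl1, -0.17 for Usp29 and 0.23 for Zim1.

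Peg10, Sgce and Mest lie on chromosome 6. Peg10, a retrotransposon-derived gene needed for the placenta, had 274, 216 and 396 normalized counts in het and 512, 548 and 245 in KO. Its 2 highest values were in KO replicates 1 and 2, but KO replicate 3 lay inside the het range (limma log2 fold change 0.52, 95% confidence interval -0.31 to 1.34). Sgce, which encodes epsilon-sarcoglycan and shares the control region of Peg10, had 397, 429.8 and 816 in het and 371, 499 and 739.8 in KO. Mest, a hydrolase-like gene of mesoderm, had 4112, 3354 and 3379 in het and 3111, 3549 and 2155 in KO (limma log2 fold change -0.32, 95% confidence interval -0.85 to 0.20). Antisense Copg2 overlaps 23.1% of the exonic length of Mest, and whether strand was used in counting is not given in the sources used here.

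Growth factor signalling was represented by Igf2r and Grb10. Igf2r, the receptor that clears Igf2, had 2564, 2800.1 and 2164 normalized counts in het and 2046, 2731 and 2654 in KO (limma log2 fold change -0.02, 95% confidence interval -0.50 to 0.46). Airn, the noncoding RNA that silences Igf2r on the paternal copy, had 54.4, 35.7 and 138 in het and 45.5, 73.4 and 16.7 in KO, with its highest value in het replicate 3 (limma log2 fold change -0.74, 95% confidence interval -2.19 to 0.71). Grb10, an adaptor that damps insulin and growth factor receptors, had 11508, 13162 and 11880.1 in het and 16607, 10093 and 17395 in KO. KO replicates 1 and 3 lay above the het libraries and KO replicate 2 below them (limma log2 fold change 0.23, 95% confidence interval -0.29 to 0.75). Its neighbour Ddc, which encodes dopa decarboxylase, had 883, 889.6 and 1064 in het and 881, 564 and 1381 in KO. KO libraries stood in an order that was the same in both genes, with KO replicate 3 highest and KO replicate 2 lowest. That order was not particular to this locus, as Mkrn3, Peg12, Slc22a18, Impact and Inpp5f had it too.

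On chromosome 2, Gnas encodes the stimulatory G protein alpha subunit and Nespas is an antisense RNA of the same locus. Gnas had 98.2, 124 and 233 normalized counts in het and 109.8, 212 and 103 in KO, and Nespas had 19.1, 16.4 and 11.7 in het and 24.7, 12.4 and 4.90 in KO. Their annotated exons share 988 bases, and exons of Gnas share 1469 bases with Gm20721 on the opposite strand. Reads from any of these genes may count for another. Nnat, a small membrane protein gene of the brain, had 1192, 1214 and 1589 in het and 1118, 1115 and 1016 in KO. All KO libraries were below all het libraries, with a limma log2 fold change of -0.29 (95% confidence interval -0.78 to 0.20, unadjusted p 0.221). Het replicate 3 was highest for both Gnas and Nnat. Mcts2, a retroposed gene for a translation factor inside H13, had 683, 833 and 528 in het and 744, 715 and 656 in KO, and is 94.5% identical to Gm8328 over 45.9% of its transcript, so its counts are uncertain. H13, which encodes signal peptide peptidase, had 3619.8, 3368 and 2862 in het and 3581, 2467 and 3000.2 in KO. Both showed overlapping groups (limma log2 fold change 0.07 for Mcts2 and -0.13 for H13).

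The last 5 genes lie at 4 loci. Zrsr1, a retroposed gene for a splicing factor, had 316, 419 and 729 normalized counts in het and 430.4, 672 and 782 in KO. Impact, a regulator of the translation kinase GCN2, had 681, 820.0 and 579 in het and 883, 623 and 1303 in KO. Inpp5f, an inositol phosphatase, had 3916, 4067 and 3211 in het and 4231, 2953 and 5068 in KO. In these genes the KO libraries spread more widely than, or overlapped, the het libraries, with limma log2 fold changes of 0.41, 0.38 and 0.10. Trappc9, a subunit of a vesicle tethering complex, had 2765, 2839.7 and 2384 in het and 2618, 1935 and 1275 in KO. KO replicate 1 lay inside the het range and the other 2 below it (limma log2 fold change -0.51, 95% confidence interval -1.12 to 0.09, unadjusted p 0.0888). Peg13, a noncoding RNA in an intron of Trappc9, had 140.2, 145 and 102 in het and 52.4, 225 and 92.1 in KO, on both sides of the het values.

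**Figure D3:**
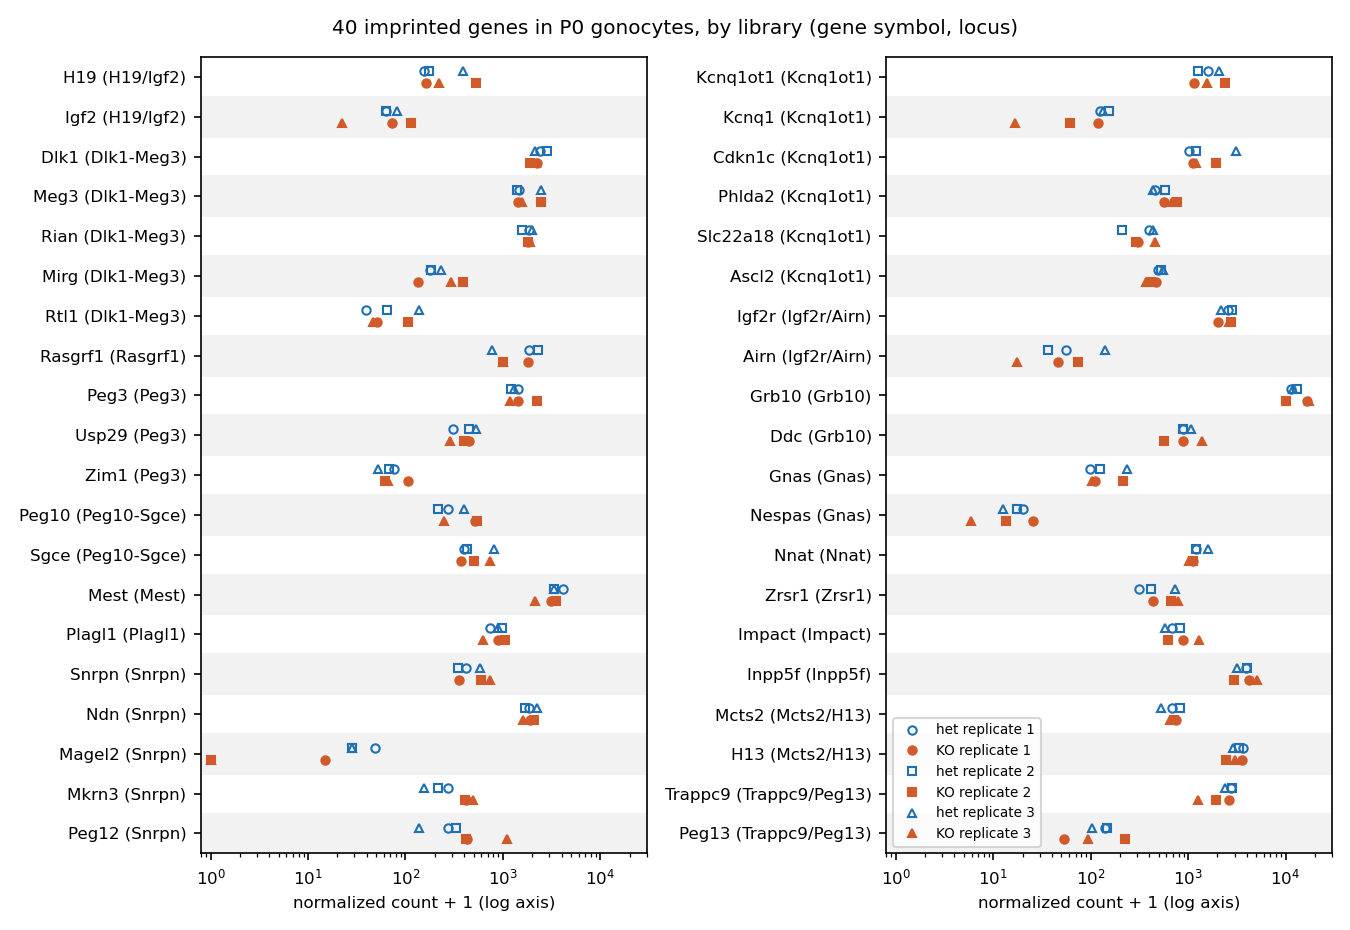
Normalized count plus 1 of each of the 40 imprinted genes in the 6 P0 libraries, on a log axis, with open symbols for het, filled symbols for KO and 1 shape per replicate number. The genes range from Nespas, the lowest, to Grb10, the highest, and the groups overlap for all but 6 genes (Mkrn3, Peg12, Magel2, Kcnq1, Ascl2 and Nnat); the points for Magel2 at 1 are KO libraries with 0 counts.

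Per kilobase of exon, the 40 genes differed far more from one another than between the genotypes. In het, Grb10 had 1340.4 normalized counts per kb, followed by Mest with 916, Cdkn1c with 871, Mcts2 with 747, Nnat with 728 and Ndn with 518. At the other end were Nespas with 5.01, Magel2 with 7.34, Zim1 with 7.94, Igf2 with 11.98 and Rtl1 with 12.6. H19, Meg3, Peg3 and Rian lay close together at 97.5, 97.9, 98.2 and 98.4. The median count level of the 40 genes was 569.1, beside 204.8 for all tested genes.

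Libraries differed in ways other than genotype. Het replicate 3, in which all 7 Leydig cell markers were highest, was the highest library for 10 of the 40 imprinted genes (25.0%, beside 21.4% of all tested genes): Rian, Rtl1, Usp29, Sgce, Ndn, Cdkn1c, Ascl2, Airn, Gnas and Nnat. That library also had the highest Sertoli cell marker sum (36683, with 7 of the 8 markers highest in it). Its germ cell marker sum (127053) was the lowest of all libraries. Mkrn3 and Peg12 were lowest in het replicate 3. Other libraries stood out as well. KO replicate 2 was the highest for H19, Igf2, Meg3, Mirg, Peg3, Peg10, Plagl1, Kcnq1ot1, Phlda2 and Peg13. KO replicate 3 was the highest for Snrpn, Mkrn3, Peg12, Slc22a18, Grb10, Ddc, Zrsr1, Impact and Inpp5f. The share of all tested genes that were highest in these KO libraries was not worked out. Without het replicate 3, the genes with an unadjusted limma p under 0.05 were Mkrn3 (0.0135), Magel2 (0.0205), Rasgrf1 (0.0357) and Zrsr1 (0.0493). Peg12 (0.0549) and Kcnq1 (0.0738) were above it. In that fit 6.94% of all tested genes were under 0.05, beside these 4 of the 40. The endothelial marker sum was higher in every KO library, as were Mkrn3 and Peg12, but only 1 of the 4 markers was: Tek had a limma log2 fold change of 1.257, against -0.26 for Pecam1, 0.27 for Cdh5 and 0.04 for Kdr, whose groups overlapped. The Sertoli marker sum was at the lower end in KO with overlapping ranges. The part of those cells in the values of the imprinted genes was not tested.

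TE copies inside the imprinted genes were counted in the same libraries. Copies that overlap an exon can hold reads of the RNA already counted for the gene, so they are not independent of it. The TE table lists 342 copies within the bodies of the 40 genes, of which 65 in 20 genes had a mean of at least 10 and were tested, 24 of them overlapping an exon. With limma, 0 of 65 were called higher and 0 lower, and the smallest adjusted p was 0.108. Among all 28340 tested copies within annotated genes, 6.5% were called higher and 0.501% lower. At an unadjusted limma p under 0.05 there were 2 of 65 (3.08%), beside 12.9% of the copies in annotated genes. The median estimate on the log2 scale was -0.16 for the 65 copies and -0.18 for all copies in genes, and their median lengths were 380 and 397 bases.

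The 2 copies lay in introns and went opposite ways. A copy in Airn (chr17:12775699-12776418, plus strand) had 10.5, 2.24 and 0 normalized counts in het and 10.5, 27.1 and 20.5 in KO (limma log2 fold change 2.51, adjusted p 0.139). A copy in Trappc9 (chr15:72844167-72846438, minus strand) had 23.2, 41.5 and 95.8 in het and 9.54, 27.1 and 8.55 in KO (limma log2 fold change -1.71, adjusted p 0.108). In both the groups overlapped. Summed over all listed copies, tested or not, Kcnq1ot1 had 282, 291 and 473 in het and 192, 547 and 321 in KO over 44 copies, Airn had 354, 363 and 295 in het and 312, 352 and 194 in KO over 39, and Usp29 had 395, 376 and 482 in het and 332, 293 and 317 in KO over 56. The single listed copy in Nnat, which overlaps an exon, had 395, 497 and 594 in het and 371, 317 and 291 in KO. For Usp29, over its 56 listed copies, and for the copy in Nnat, every KO value was below every het value in the scaling of the TE table. The same held for Rian over 7 listed copies (329, 264 and 277 in het, 237, 214 and 257 in KO). It also held for Plagl1 over 4 (44.3, 40.4 and 27.8 in het, 6.68, 12.4 and 11.1 in KO). These sums were not tested, and the share of such genes over the whole series was not worked out.

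A wider window took in each gene and 10 kb on either side, and so held the 65 tested copies inside the genes again. In it 0 of 77 tested copies were called. Of all 49781 tested copies, 15.6% were called higher in KO and 0.735% lower. Among tested copies within annotated genes, 6.5% were called higher and 0.501% lower. Over 50 kb, a size chosen after the values were seen, the window again held the copies inside the genes. There 1 of 127 was called higher, the copy near Ndn, and 1 lower. The lower one, at chr12:109791191-109796668 (5478 bases, minus strand) and 41.73 kb downstream of Mirg, had 63.3, 42.6 and 41.2 normalized counts in het and 13.4, 12.4 and 7.70 in KO. The 3 KO values were all under the lowest het value. Its mean fell from 49.0 ± 12.4 to 11.1 ± 3.02 (SD, n = 3 each), with a limma log2 fold change of -2.05 (SE 0.51, adjusted p 0.0169), and the call was lost without het replicate 1 (adjusted p 0.0905). Mirg, the nearest of the 40 genes, had overlapping groups, as given above.

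**Figure D4:**
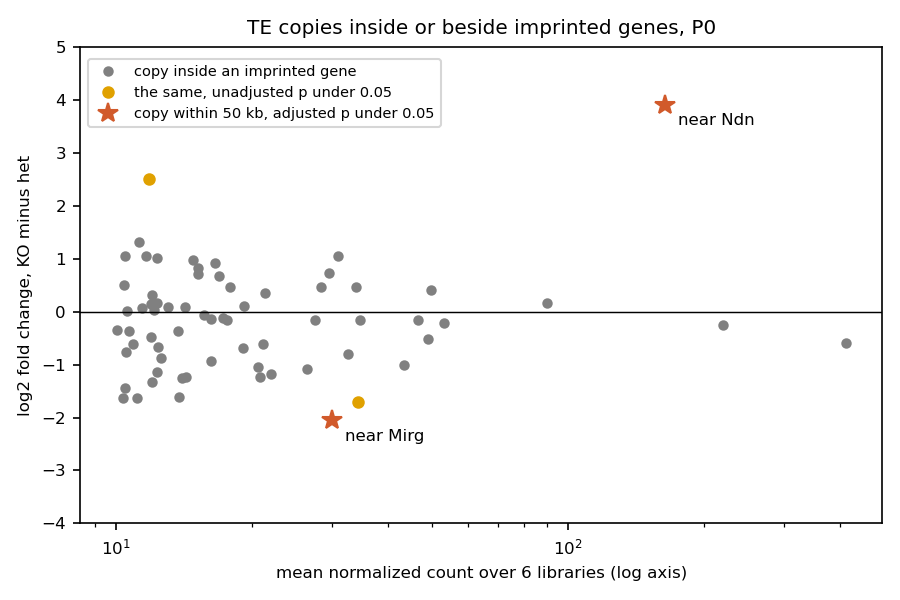
Log2 fold change (KO minus het, limma) of the 65 tested TE copies inside the imprinted genes against their mean normalized count (log axis), with the 2 called copies within 50 kb as stars. None of the 65 copies inside the genes was called, and the called neighbours are the copy upstream of Ndn at 3.91 and the copy downstream of Mirg at -2.05.

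Genes that regulate imprints were tested as a list of 30. It included DNA methyltransferases, zinc finger proteins that protect control regions, chromatin modifiers, Tet1, Tet2 and Tet3, and members of the piRNA pathway. With limma, 0 of 30 were called in either direction, with 17 estimates above 0, 13 below and a median log2 fold change of 0.04, beside -0.02 for all tested genes. At an unadjusted p under 0.05 there was 1 (3.33%, beside 6.86% of all tested genes), Zfp445, a KRAB zinc finger protein that protects imprints, with 1056, 1214 and 839 normalized counts in het and 1911, 1189 and 1685 in KO (limma log2 fold change 0.61, adjusted p 0.686). KO replicate 2 lay inside the het range. The groups did not overlap for 2 of the 30, both with KO above het, beside 7.17% of all tested genes.

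A second list held 45 further imprinted genes, of which 44 were in the table and tested. With limma, 0 of 44 were called, with 22 estimates above 0, 22 below and a median log2 fold change of 0.01. At an unadjusted p under 0.05 there were 2 (4.55%, beside 6.86% of all tested genes), both below 0. The groups did not overlap for 6 of the 44, 3 with KO above het and 3 with KO below, beside 7.17% and 5.57% of all tested genes. Dhcr7, which encodes the last enzyme of cholesterol synthesis, had 8771, 7276 and 5044 normalized counts in het and 4013, 3626 and 2919 in KO (limma log2 fold change -0.97, adjusted p 0.201). Smoc1, a secreted matrix protein gene, had 1825, 1709 and 2002 in het and 1242, 1562 and 1174 in KO (limma log2 fold change -0.48, adjusted p 0.717). All KO libraries were below all het libraries in both.

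The promoters of the imprinted genes were described from RefSeq sequence alone, without a methylation measurement. RefSeq windows of 300 bases around the start (GRCm38.p6) matched 30 of the 40 genes, with 44 windows. Their median ratio of observed to expected CpG was 0.591, beside 0.384 for all 32851 windows. The hexamer TGCCGC, whose methylated form is bound by ZFP57, was searched on both strands and was present in 10 of 44 windows (22.7%), beside 11.6% of all windows. It was absent from the 250 bases shown for Magel2, Mkrn3 and Peg12. A match describes letters in a window and not a binding site, and control regions can lie outside these windows.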

How the data were processed

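RNA of P0 gonocytes was measured in 6 libraries, 3 het and 3 KO. The deposited values are a signal, read counts divided by size factors: DESeq2 factors made by the authors, per the name of the gene table, and for the TE table as judged from its values. The submitters' processing notes name bcl2fastq 2.20, cutadapt 1.18, HISAT2 2.1.0, featureCounts 1.5.2 and DESeq2 1.26.0, with the builds mm10 and GRCm38. Strand handling and multi-mapping reads are not given in the sources used here. Of the 35666 genes, 35560 matched GENCODE M21.

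Het and KO were compared by limma 3.58.1 (R 4.3.3; lmFit followed by eBayes with its trend option, two-sided, without covariates) on log2(normalized count + 1) where the mean reached 10, with Benjamini-Hochberg adjustment over all tested genes, checked on simulated data. On the log2(normalized count + 1) scale of the fold changes, the added 1 shrinks ratios of low values, and because logs are averaged per library, a library at or near 0 can move an estimate past the ratio of the means, as for Magel2 and Kcnq1. TE copies were tested likewise, since their table is normalized too and the edgeR test foreseen for raw counts was not needed. Copies were placed with bedtools 2.31.1 and transcripts compared with blastn 2.17.0.

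In every column 100% of values were whole multiples of 1 step (tolerance 0.001). The tolerance was relative to the value, so large values pass in any case and only the lower values bear on the recovery. The recovered reads served for totals and for the alternatives with edgeR 4.0.16 and DESeq2 1.42.0. Other alternatives changed the pseudocount, filter, scaling or trend, left out 1 library or added the replicate number. For KO replicate 1 the step is so close to 1 that recovery could not be checked automatically. The reads have no molecular identifiers, so limits from 0 reads cover counting error only.

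All 40 genes are accounted for. Values per library are given for genes whose mean reached 100 or an unadjusted p under 0.05, and for up to 10 further genes. From other lists, genes with an unadjusted p under 0.05 are named. TE copies were to be named only when called inside a gene: the 4 named copies were chosen after their values were seen. The genes and lists were chosen with earlier results of these data known.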

Additional observations from a re-analysis of the deposited data

How the results depend on the processing

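With limma, 0 of the 40 imprinted genes were called in either direction, and this held in all 17 alternative fits except DESeq2 on recovered reads, which called 1 higher. The number with an unadjusted limma p under 0.05 was 3 to 6 when 1 library was left out, beside 4.48% to 9.04% of all tested genes. Over all genes, 112 were higher and 11 lower. DESeq2 gave 400 and 65, a pseudocount of 0.1 gave 70 and 5, a pseudocount of 10 gave 177 higher, and limma without trend gave 3 lower. Leaving out 1 library gave 15 to 107 higher and 1 to 7 lower. With the replicate number as a block, limma gave 64 higher and 5 lower and edgeR 38 and 0, and neither called an imprinted gene. The numbers come from sample titles and same-numbered libraries did not deviate together (correlations over genes of 0.138, -0.163 and -0.044), and no KO library correlated best with its own number. Of 678 estimates for single genes under the alternatives, 639 kept direction and call and 38 reversed, 35 of them among the 240 with 1 library left out. Magel2 and Nespas gave none at a mean of at least 50. Igf2 reversed to 0.005 with DESeq2 and 0.003 with edgeR, and Sgce to 0.008 with quantile normalization. The 22 genes that reversed with 1 library left out ranged over log2 fold changes of -0.49 to 0.30 (Cdkn1c), -0.42 to 0.23 (Ddc), -0.41 to 0.28 (Gnas), -0.26 to 0.004 (H13), -0.20 to 0.71 (H19), -0.77 to 0.40 (Igf2), -0.13 to 0.11 (Igf2r), -0.071 to 0.32 (Inpp5f), -0.27 to 0.28 (Kcnq1ot1), -0.10 to 0.23 (Mcts2), -0.18 to 0.31 (Meg3), -0.13 to 0.079 (Ndn), -0.89 to 0.18 (Nespas), -0.87 to 0.17 (Peg13), -0.21 to 0.17 (Plagl1), -0.76 to 0.02 (Rasgrf1), -0.056 to 0.11 (Rian), -0.60 to 0.31 (Rtl1), -0.27 to 0.32 (Sgce), -0.28 to 0.26 (Slc22a18), -0.38 to 0.017 (Usp29) and -0.014 to 0.37 (Zim1). TE copies inside the genes stayed at 0 called in all 11 alternatives. Within 50 kb, a window and a count added after the data were seen, higher copies numbered 1 to 3 and lower copies 0 to 1 when 1 library was left out, and 0 were lower at a mean of at least 50, where fewer copies were tested. The cause was not tested for the other changes. With 3 libraries a group, genes near 30 normalized counts or below, such as Magel2 and Nespas, had the least precise estimates.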
